A study of Homo sapiens with 31 samples.

Results

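The genes described here are the ubiquitin system genes among the microRNA (miRNA) targets of Huh-7.5 cells, a human hepatoma line. They were taken by their gene symbols, as every gene whose symbol starts with USP, UBE1 to UBE4, UBR, TRIM, RNF, FBXO, FBXW, FBXL or CUL and goes on with a letter or digit. The rule used names and no measured value. It took 466 chimeric interactions at 153 genes. The table lists 32712 interactions, of which 21961 lie at 7069 genes with a symbol, so the ubiquitin system genes held 2.12% of the interactions and 2.16% of the genes. The other 21495 interactions lay at 6916 genes, called all other genes below.

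Argonaute (AGO), the protein that carries miRNAs, was crosslinked to RNA in the cells and purified, and reads in which a miRNA had become joined to a piece of its target were sequenced and clustered into interactions. The table pools 31 libraries. Of these, 12 were CLEAR-CLIP libraries in 6 groups of 2. With low RNase A, the groups were siRNA against the RNA ligase HSPC117 without T4 RNA ligase, HSPC117 over-expression without T4 RNA ligase, no HSPC117 manipulation without T4 RNA ligase, and no HSPC117 manipulation with T4 RNA ligase. The remaining groups had HSPC117 over-expression without T4 RNA ligase, and either high RNase A or RNase T1. Standard CLIP gave 19 libraries, 4 from cells given LNA-122 and 4 from cells given miravirsen, both antisense inhibitors of miR-122, 4 from mock-treated cells and 7 with no treatment named. All came from the same line. An interaction carries no library name, so no treatment could be compared and no replicate error could be had. Every error below is a counting interval, a spread between genes or a spread over interactions.

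Ubiquitin is a small protein that cells attach to other proteins, most often to mark them for the proteasome. It is activated by an E1 enzyme, passed to an E2 conjugating enzyme and placed on the substrate with the help of an E3 ligase, and deubiquitinating enzymes take it off again. RNF and TRIM proteins are mostly RING-type E3 ligases, and UBR proteins recognise destabilising protein ends. Cullins are scaffolds of multi-subunit ligases, and F-box proteins choose the substrate in those built on CUL1. USP proteins are the largest family of deubiquitinating enzymes. A miRNA finds its target mainly through its seed, bases 2 to 8 from the 5′ end, and pairing of its 3′ part can add to this.

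The mature sequences of some of the miRNAs found often at ubiquitin system genes are shown because the seed and the rest of the miRNA are what the interactions below are described by. They are RefSeq's (GRCh38.p14) and run 5′ to 3′ with the seed in capitals. The first 4 have the same seed, AAAGUGC, and together made 75 of the 466 interactions. Of the 96 miRNA names at ubiquitin system genes 78 were found in RefSeq, which cover 377 interactions. miR-320a, as frequent as miR-17-5p, is named only.
miR-17-5p: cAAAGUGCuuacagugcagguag
miR-20a-5p: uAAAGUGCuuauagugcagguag
miR-106b-5p: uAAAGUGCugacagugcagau
miR-93-5p: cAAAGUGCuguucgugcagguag
miR-16-5p: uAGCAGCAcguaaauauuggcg
miR-26a-5p: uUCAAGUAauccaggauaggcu
miR-92a-3p: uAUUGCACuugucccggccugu
miR-122-5p: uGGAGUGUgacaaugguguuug
miR-27a-3p: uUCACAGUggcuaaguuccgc
miR-194-5p: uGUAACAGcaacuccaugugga
miR-19a-3p: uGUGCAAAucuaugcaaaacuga
miR-192-5p: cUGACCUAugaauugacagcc

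For 9 interactions that recur below, the same sequences are shown with the bases that the deposited duplex prediction pairs, by Watson-Crick or G:U pairs, in capitals. The prediction was made to pair the seed wherever a seed match was present, so the capitals in the seed follow from the match, and those after it are the less constrained part.
UBE2R2 with miR-16-5p: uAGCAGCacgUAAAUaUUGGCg
UBE2C with miR-103a-3p: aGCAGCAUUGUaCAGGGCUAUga
UBE3C with miR-192-5p: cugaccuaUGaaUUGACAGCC
TRIM37 with miR-17-5p: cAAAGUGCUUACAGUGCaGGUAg
TRIM37 with miR-20a-5p: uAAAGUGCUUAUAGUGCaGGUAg
RNF43 with miR-574-5p: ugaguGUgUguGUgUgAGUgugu
FBXO22 with miR-106b-5p: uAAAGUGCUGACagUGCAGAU
FBXW7 with miR-16-5p: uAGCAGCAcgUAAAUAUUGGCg
USP34 with miR-26a-5p: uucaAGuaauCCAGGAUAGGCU

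Depth was low. The table holds 35811 unique reads, 488 of them at ubiquitin system genes, and 449 of the 466 interactions rested on 1 read. The hepatocyte identity of the cells was visible in the targets, since all 15 hepatocyte genes looked up (among them AFP with 57 interactions, APOB with 49 and ALB with 33) had interactions, while of 12 genes of blood, stromal, endothelial, neural and muscle cells only SYT1 did, with 6 in introns.

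Of the 363 protein-coding genes in RefSeq whose current symbol fits the rule, 149 (41.0%) had an interaction, against 33.2% of all 20056 protein-coding genes. Neither RNA level nor gene length was taken into account. All 153 gene identifiers were found in RefSeq. FBXO18 and RNF219 are now called FBH1 and OBI1, names that the rule would not take, and FBXL21 is now listed as a pseudogene. A ubiquitin system gene had a median of 2.00 interactions and a mean of 3.05, against a median of 2.00 and a mean of 3.11 for all other genes. A single interaction was found for 50 of the 153, and 29 (19.0%) had 5 or more, near the 17.5% of all 7069 listed genes. The 10 genes with the most held 112 interactions, or 24.0%.

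**Figure D1:**
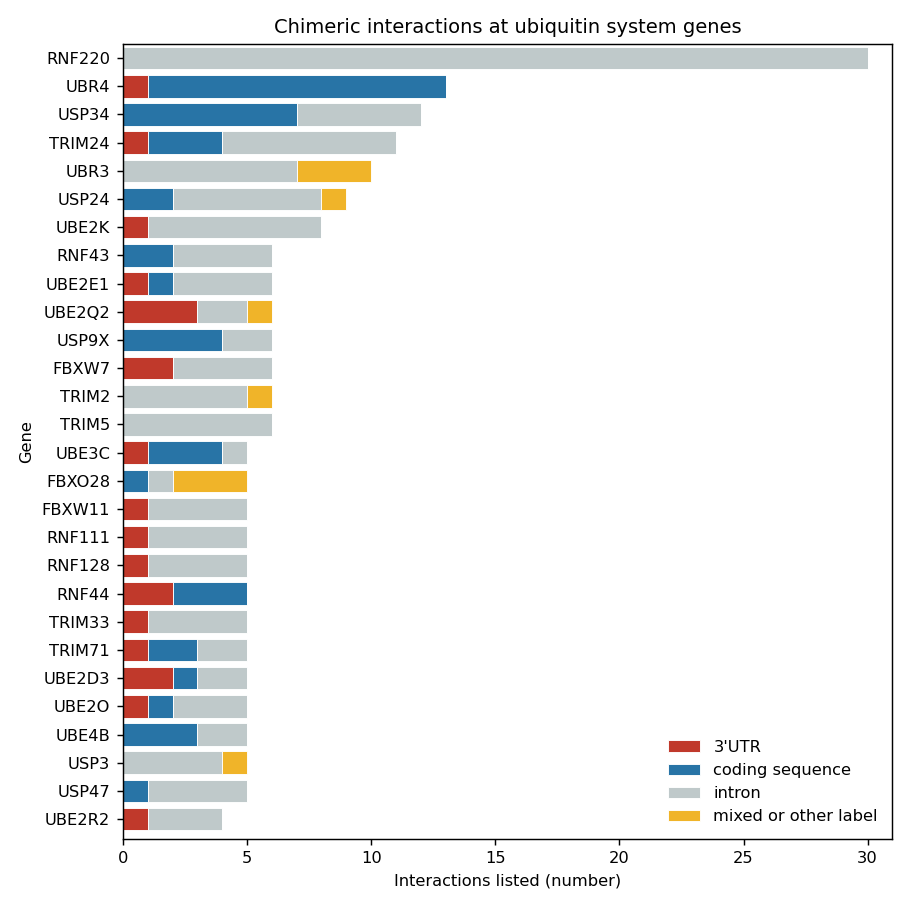
Interactions (horizontal axis, number) at 28 of the 30 ubiquitin system genes with the most, coloured by transcript region. RNF220 has 30, all in introns, UBR4 has 13, of which 12 are in the coding sequence, and the gene in the last row has 4.

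The E2 enzymes had 65 interactions at 25 genes. In the 3'UTR lay 19 of them (29.2%, 95% Wilson interval 19.6 to 41.2), and 5 (7.69%, 3.33 to 16.8) lay in the coding sequence. Among all other genes 17.7% lay in the 3'UTR and 18.2% in the coding sequence. These group shares were not tested, since the groups were chosen with the table known. UBE2K, an E2 that builds ubiquitin chains by itself, had the most with 8, of which 7 were in introns and 5 had a canonical seed match (8mer, 7mer-m8, 7mer-A1, 6mer or offset 6mer, all perfect). Its intron 8mers belonged to miR-320a and miR-106b-5p, and its duplex with miR-652-3p had the 4th lowest predicted energy of the 466, -34.1 kcal per mol. UBE2E1 had 6, of which 4 were in introns, and its 3'UTR interaction with miR-4279 was read 2 times. UBE2Q2 had 6, of which 3 were in the 3'UTR, made by miR-26a-5p at separate places with a mismatched and a bulged 8mer and by miR-92a-3p with a 6mer and 2 reads.

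UBE2R2, an E2 that works with cullin-RING ligases, held the most repeated interaction of the 466. miR-16-5p was joined 4 times to its 3'UTR (chr9:33907699-33907774, hg18, plus strand), where a 6mer is listed and the duplex had an energy of -24.2 kcal per mol. As the printed sequence shows, the seed pairs up to base 7 and pairing resumes over most of the 3′ part. All 4 of the interactions of UBE2R2 had canonical matches, including intron 8mers of miR-26b-5p and miR-30a-5p. UBE2C, the E2 of the anaphase-promoting complex, was joined 2 times to miR-103a-3p in a region labelled both coding sequence and 3'UTR, with a 7mer-m8. UBE2H was joined 2 times to miR-320a in an intron with an 8mer.

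The UBE3 and UBE4 genes, E3 ligases of the HECT and U-box kinds and their relatives, had 18 interactions at 5 genes. The coding sequence held 8 of them (44.4%, 24.6 to 66.3), and 9 were canonical. UBE3C, a HECT ligase that acts at the proteasome, had 5, of which 3 were in the coding sequence. One of those, with miR-192-5p, was read 2 times and has no seed match at all, and the printed duplex pairs no base of the seed and 11 bases after it. UBE3C also had 1 of the only 3 8mers found in a 3'UTR of a ubiquitin system gene, with miR-17-5p. UBE4B, which lengthens ubiquitin chains, had 5, with 3 in the coding sequence and an intron 8mer of miR-320a at -33.8 kcal per mol. UBE3D had 4, of which 3 were in introns, UBE3A, the ligase lost in Angelman syndrome, had 2 in the coding sequence, and UBE4A had 2.

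The UBR genes had 32 interactions at 5 genes, and 15 of them (46.9%, 30.9 to 63.6) lay in the coding sequence. UBR4, a very large protein that recognises destabilising protein ends, accounted for 12 of these 15. Its 13 interactions had none in an intron and came from 10 miRNAs, of which miR-320a appeared 3 times and miR-27a-3p 2 times. They were spread over 123 kb of the gene, except that 3 started within 240 nucleotides, those of miR-26a-5p, miR-25-3p and miR-17-5p. UBR3 showed another pattern, with 7 of 10 interactions in introns, 3 with a mixed label of coding sequence and 5'UTR, and a different miRNA each time. Its intron 7mer-m8 with miR-483-3p had an energy of -30.9 kcal per mol. UBR1, an N-end rule ligase, had 2 and UBR2 had 1. All 32 were read once.

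TRIM genes had 59 interactions at 18 genes, of which 35 (59.3%, 46.6 to 70.9) were in introns and 22 were canonical. TRIM24, a chromatin reader and ligase, had 11 of 11 different miRNAs, with 7 in introns, 3 in the coding sequence and 1 in the 3'UTR. TRIM2, a ligase of neurofilament light chain, had 6, of which 5 were in introns. TRIM5, a restriction factor of retroviruses, had 6, all in introns and extending over 217 kb. TRIM37 had 4, all in introns. There miR-17-5p was joined 3 times with an 8mer (chr17:54473683-54473758, hg18, minus strand) at an energy of -33.3 kcal per mol, and miR-20a-5p 1 time with an 8mer to an overlapping region at -31.4 kcal per mol. Both printed duplexes pair the whole seed and 13 of the bases after it.

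RNF genes had the largest number of interactions after the USP genes, 101 at 33 genes, and 62 (61.4%, 51.6 to 70.3) were in introns. RNF220, a RING-type ligase, supplied 30 of these. All 30 were in introns on the strand of the gene, each was read once, and none overlapped another. They came from 18 miRNAs and extended over 216 kb, with a median distance of 5.60 kb between neighbouring starts, the shortest 0.498 kb and the longest 30.6 kb. miR-17-5p and miR-27a-3p appeared 4 times each, at separate places. A canonical match was listed for 10 of the 30 and no seed match for 6, and 8 fell in class 4 of the deposited duplex classes, in which the fewest seed bases pair (a mean of 2.00 of 7 at ubiquitin system genes and 2.04 at all other genes). Its 8mers both belonged to miR-122-5p. By intron interactions RNF220 ranked 18th of 4507 genes, and it was 1 of 7 genes that had 30 or more interactions with every one in an intron.

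**Figure D2:**
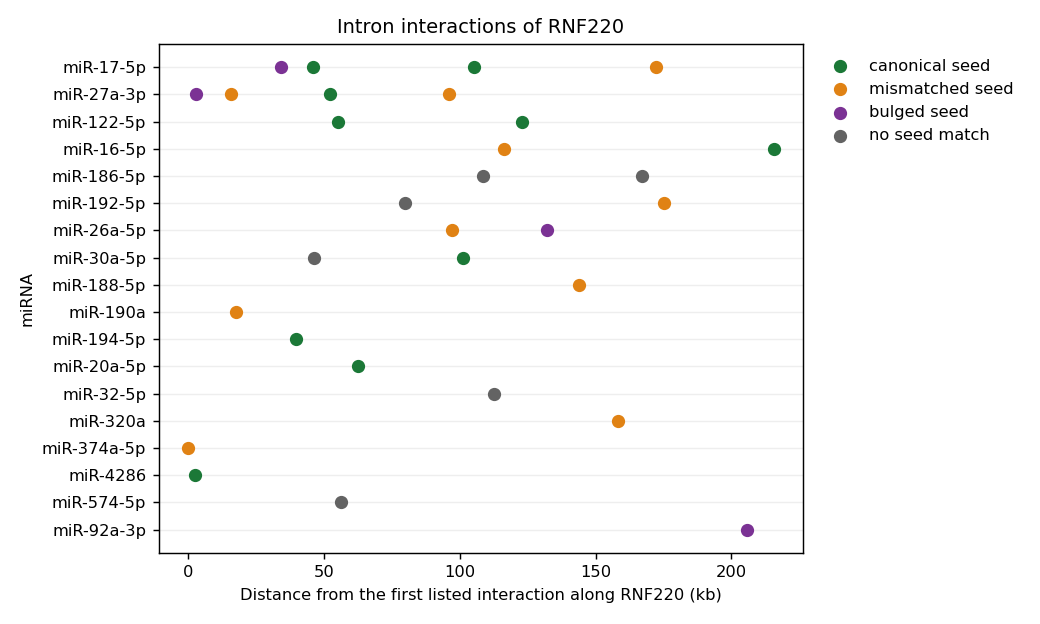
The 30 interactions of RNF220 by distance from the first one (horizontal axis, kb) and miRNA (vertical axis), coloured by seed match. Most miRNAs appear at 1 or 2 places, the points extend over 216 kb, and canonical matches are interspersed with interactions that have no seed match.

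Leaving out RNF220, 50.0% of the interactions at ubiquitin system genes were in introns, against 53.2% with it. RNF43, which removes Wnt receptors from the cell surface, had 6, of which 4 were in introns. One of those, with miR-574-5p, was read 3 times although no seed match is listed and the energy was -11.7 kcal per mol. The printed duplex pairs 9 scattered bases of a GU-rich miRNA. RNF169, a factor of the DNA damage response, was joined 2 times to miR-30c-5p in its coding sequence with a bulged 7mer-m8. RNF44 had 5 interactions within 3.45 kb, of which 3 were of miR-320a.

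F-box genes had 67 interactions at 29 genes, with 34 in introns, 13 in the 3'UTR and 13 in the coding sequence. FBXW7, the substrate receptor for cyclin E and MYC, had 6. Its 3'UTR interactions lay near each other without overlapping, with miR-16-5p at an 8mer (chr4:153462650-153462725, hg18, minus strand) and miR-26a-5p at a mismatched 7mer-m8. The printed miR-16-5p duplex pairs 18 of 22 bases. FBXO28 had 5, of which 2 of miR-19a-3p were at separate places, and FBXW11, a receptor for beta-catenin, had 5 with no canonical match. FBXO22 was joined 3 times to miR-106b-5p in its coding sequence (chr15:74009347-74009422, hg18, plus strand) with a 7mer-m8 and an energy of -29.3 kcal per mol. FBXL2 was joined 2 times to miR-186-5p in an intron with a bulged match.

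Cullin genes had 16 interactions at 6 genes. None was in a 3'UTR alone, and 0 of 16 allows a share of up to 18.8%. CUL3, the scaffold of the BTB-type ligases, had 4 of 4 miRNAs, including the minor strand miR-122-3p. CUL1, the scaffold that holds the F-box proteins, had 3 in introns, one of them with miR-425-5p at -31.0 kcal per mol without a match longer than a 5mer. CUL4A, the scaffold that binds DDB1, had 3 in introns, of which 2 were of miR-26a-5p, and CUL9 had 3. CUL4B, the paralogue of CUL4A, had 2, of which the coding-sequence interaction with miR-4279 was read 2 times.

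USP genes had the most interactions, 108 at 32 genes, with 53 in introns (49.1%, 39.8 to 58.4), 30 in the coding sequence (27.8%, 20.2 to 36.9) and 15 in the 3'UTR. USP34, a very large deubiquitinating enzyme, had 12, of which 7 were in the coding sequence and 5 in introns, and 2 were canonical. Its intron interaction with miR-26a-5p was read 2 times without a seed match, and in the printed duplex 12 bases of the 3′ part pair against 2 of the seed. USP24 had 9, and 4 of them, of 4 miRNAs and in introns, started within 690 nucleotides. USP9X, the relative of fly fat facets, had 6, with 4 in the coding sequence, and miR-92a-3p appeared at 2 of its intron places, one of them with 2 reads. USP11 and USP19 were each joined 2 times to miR-320a, in a 3'UTR and in an intron. USP10 held the lowest predicted energy of the 466, -37.0 kcal per mol, with miR-874 at a 6mer in a region labelled both coding sequence and 5'UTR, and USP48 had 4 interactions, all canonical.

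**Figure D3:**
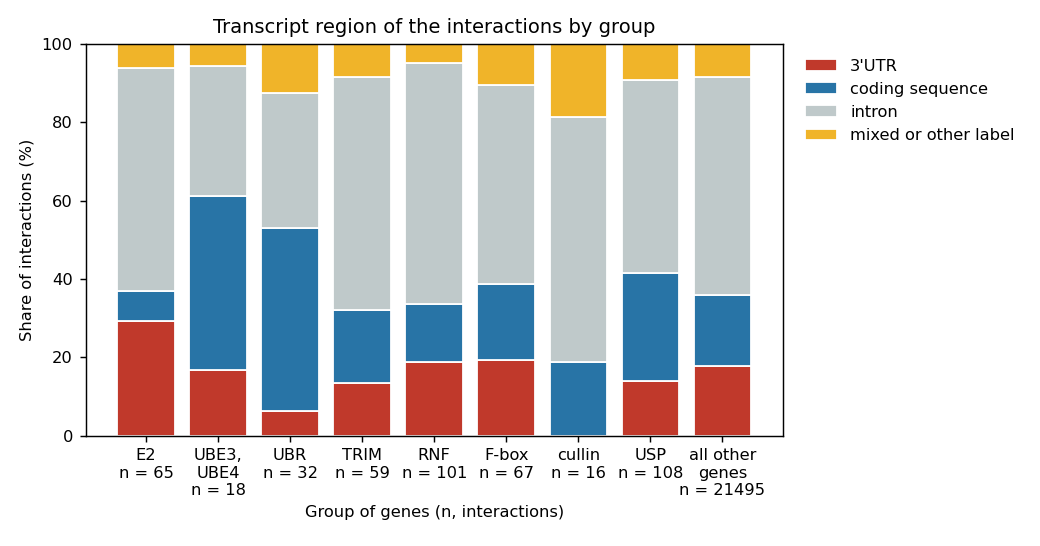
Share of interactions (vertical axis, %) in each transcript region for 8 groups of ubiquitin system genes and for all other genes, with the number of interactions under each bar. The coding sequence makes up 46.9% in UBR genes and 44.4% in UBE3 and UBE4 genes, against 18.2% in all other genes, and the 3'UTR makes up 29.2% in E2 genes, against 17.7%.

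Repeated reads were rare. At ubiquitin system genes 17 interactions had 2 or more reads (3.65%, 2.29 to 5.76), 4 had 3 or more, and the highest count was 4. At all other genes 4.84% had 2 or more reads and the highest count was 20. The 17 lay in 17 genes, or 11.1% of 153, near the 11.7% of all listed genes. Of these, 8 had a canonical match, 3 had no seed match, 7 were in introns, 5 in a 3'UTR and 4 in the coding sequence. E2 genes held 5 of them.

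The 3'UTR, where miRNA sites are best known to act, held 79 of the 466 interactions, at 64 genes. Of these, 30 (38.0%, 28.1 to 49.0) had a canonical match, against 42.0% of the 3'UTR interactions at all other genes. They lay in 29 genes, or 19.0% of 153, against 16.8% of all listed genes. The 8mers in a 3'UTR were those of FBXW7 with miR-16-5p, UBE3C with miR-17-5p and USP45 with miR-25-3p. That is 3 of 153 genes (1.96%), against 4.77% of all listed genes. Each was read once. Other perfect 3'UTR matches included the 7mer-m8 of miR-17-5p in TRIM8, of miR-24-3p in TRIM11, of miR-320a in RNF20, a ligase of histone H2B, and of miR-454-3p in USP48. In introns, 27 of 248 interactions were 8mers (10.9%, 7.59 to 15.4), against 6.92% at all other genes. They lay in 20 genes and were of 16 miRNAs, led by miR-17-5p with 5 and miR-320a with 4.

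Interactions of different miRNAs overlapped less often at ubiquitin system genes than at all other genes. An interaction counted as lying at a shared place if its region overlapped that of another miRNA on the same strand by at least 1 nucleotide. This held for 26 of 466 interactions (5.58%, 3.84 to 8.05), against 2460 of 21495 (11.4%), a difference of -5.87 percentage points (n = 466 and 21495, SE 1.59, 95% interval -8.99 to -2.74, adjusted p = 0.00254, two-sided linear model with standard errors clustered by gene, Benjamini-Hochberg over 11 measures). Counted by genes, a shared place was found in 13 of 153 genes (8.50%), against 11.6% of all listed genes. The 26 made 13 places with 2 miRNAs each, whereas up to 25 other miRNAs overlapped 1 region elsewhere. Among all other genes, 33 had more than 30 interactions, and without them the difference was -4.36 points (n = 466 at ubiquitin system genes, adjusted p = 0.0429). With an overlap of at least 30 nucleotides it was -4.16 points (n = 466, adjusted p = 0.0925), and a logistic model gave an adjusted p of 0.0606. In introns alone the shares were 4.03% and 5.76% (n = 248 and 11974, adjusted p = 0.510).

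At 4 of the 13 places both miRNAs had the seed AAAGUGC. These were miR-93-5p and miR-20a-5p in an intron of FBXL21, miR-17-5p and miR-106b-5p in FBXO28, miR-106b-5p and miR-17-5p in an intron of TRIM24, and miR-17-5p and miR-20a-5p in TRIM37. All but those of TRIM24 were 8mers. Reads that fitted several miRNAs of a family were given to 1 of them by a random choice, so such pairs need not be different miRNAs. The miR-320 family made 2 more, miR-320d and miR-320a as 8mers in an intron of USP14, a deubiquitinating enzyme of the proteasome, and miR-320c and miR-320a in USP39, a splicing factor. The other places joined miRNAs of unlike name, among them miR-25-3p and miR-17-5p in the coding sequence of UBR4, both with perfect matches, miR-25-3p and miR-454-3p in the 3'UTR of USP45, and miR-30a-5p and miR-92a-3p in an intron of USP13. Others were in FBXW2, TRIM14 and UBE2W.

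Of the 11 measures compared, no other passed an adjusted p of 0.05. The canonical seed share was 35.4% at ubiquitin system genes and 32.9% at all other genes, a difference of 2.47 points (n = 466 and 21495, 95% interval -1.76 to 6.69, adjusted p = 0.463). The 8mer share was 7.94% and 7.47% (n = 466 and 21495, difference 0.473, interval -2.22 to 3.17, adjusted p = 0.731). No seed match was listed for 11.6% and 13.4% (n = 466 and 21495, difference -1.86, interval -4.55 to 0.824, adjusted p = 0.384). The 3'UTR held 17.0% and 17.7% (n = 466 and 21495, adjusted p = 0.731), the coding sequence 21.5% and 18.2% (interval of the difference -3.20 to 9.69, adjusted p = 0.509), and introns 53.2% and 55.7% (interval -10.9 to 5.97, adjusted p = 0.718).

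The predicted duplex energy averaged -20.3 ± 5.43 kcal per mol at ubiquitin system genes and -19.8 ± 5.37 at all other genes (SD over interactions, n = 466 and 21495), a difference of -0.485 (interval -1.07 to 0.104, adjusted p = 0.384). Class 4 made up 10.9% and 9.94% (n = 466 and 21495, adjusted p = 0.718). Where a canonical match was present, it started in the first 37 of the 75 listed positions, near the ligation, in 145 of 165 interactions (87.9%) at ubiquitin system genes and in 82.8% at all other genes. That difference of 5.12 points (interval 0.400 to 9.84) had an unadjusted p of 0.0335 and an adjusted p of 0.184. Weighted by reads it was 7.62 points (n = 165 and 7081, adjusted p = 0.00506), the only pass among 8 alternatives. After the seed, a mean of 8.81 ± 2.57 bases paired at ubiquitin system genes and 8.88 ± 2.54 at all other genes (SD over interactions). By position, pairing differed most at base 13, where 69.3% (65.0 to 73.3) of the ubiquitin system duplexes paired, 5.82 points more than at all other genes, which was not tested.

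**Figure D4:**
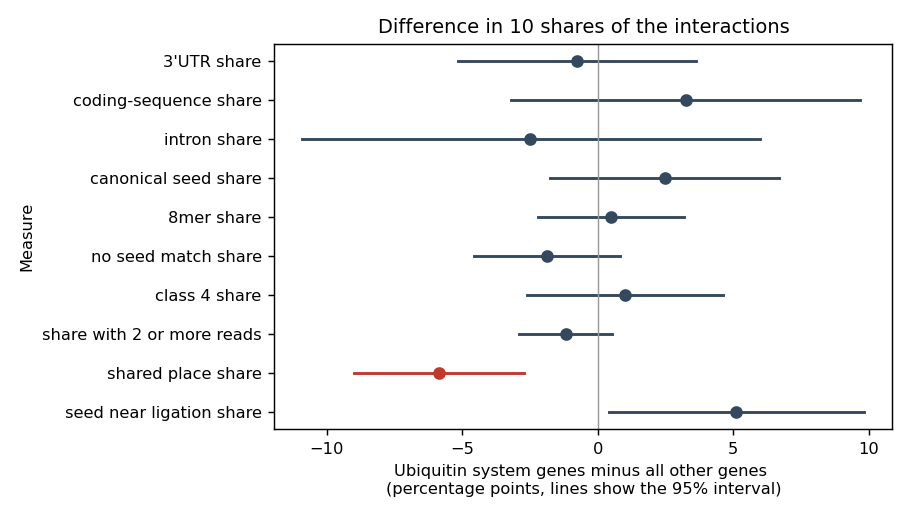
Difference in 10 shares of the interactions (horizontal axis, percentage points, ubiquitin system genes minus all other genes), with its 95% interval clustered by gene. The share at a place shared with another miRNA, in red, is the 1 that passed the adjusted threshold, at -5.87 points.

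Imperfect seeds at ubiquitin system genes resembled those elsewhere in number. A single mismatch was listed for 140 of 466 interactions (95% Wilson interval 26.1 to 34.4%), against 29.4% at all other genes, and a bulge for 77 (16.5%, 13.4 to 20.2), against 16.2%. Of the bulges 61 of 77 (79.2%) were of a miRNA base, against 80.3%. The mismatch lay most often at base 6 (38 of 140, 27.1%, 20.5 to 35.0), against 19.7% at all other genes, where base 5 led with 21.7%. G:U pairs made up 16 of the 140 mismatches (11.4%, 7.16 to 17.8), against 16.5%. None of these was tested.

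The miRNAs at ubiquitin system genes were those frequent in the table as a whole, and 10 of the 96 made 45.3% of the interactions. miR-17-5p and miR-320a had 42 each (9.01%, 6.74 to 12.0). At all other genes they had 7.75% and 5.95%. Of 23 miRNAs tested by the same linear model, 0 (0%) passed an adjusted p of 0.05, and 2 had an unadjusted p under 0.05. The first was miR-320a, 3.06 points higher at ubiquitin system genes (n = 466 and 21495, interval 0.363 to 5.75, p = 0.0261, adjusted p = 0.300). The second was miR-130a-3p, with 4 interactions, 0.858% at ubiquitin system genes, which was lower than the 1.94% at all other genes (n = 466 and 21495, p = 0.0135, adjusted p = 0.300). Grouped by seed, the AAAGUGC miRNAs made 19.9% of the 377 interactions of matched names at ubiquitin system genes and 15.5% at all other genes, a difference of 4.35 points (n = 377 and 17795, interval 0.353 to 8.35, p = 0.0329, adjusted p = 0.494 over 15 seeds).

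**Figure D5:**
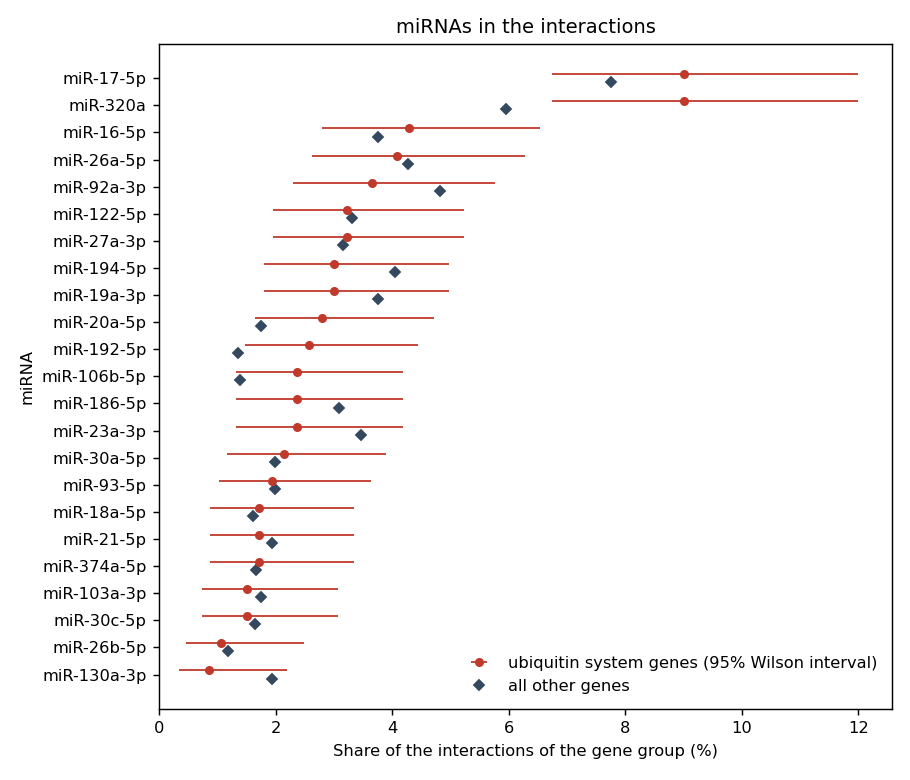
Share of the interactions (horizontal axis, %) made by each of the 23 tested miRNAs at ubiquitin system genes, in red with 95% Wilson intervals, and at all other genes, in dark diamonds. miR-17-5p and miR-320a lead at 9.01% each, and 0 of the 23 passed the adjusted threshold.

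The 42 interactions of miR-320a lay in 35 genes, with 19 in introns, 13 in the coding sequence and 7 in the 3'UTR. Their mean energy was -25.5 ± 4.44 kcal per mol, and -24.7 ± 4.71 at all other genes (SD over interactions). Those of miR-17-5p lay in 37 genes, 26 of them in introns, and 21 were canonical (50.0%, 35.5 to 64.5), against 44.5% at all other genes. miR-122-5p, the main miRNA of hepatocytes and the one the inhibitors bind, had 15 interactions in 14 genes, 11 of them in introns, and 7 were canonical (46.7%, 24.8 to 69.9), against 46.7%. It made 3.22% of the interactions, against 3.31% at all other genes. Of the 31 libraries, 8 came from cells with a miR-122 inhibitor. That is not their share of the pooled reads, since the libraries differed in depth. By the paper's counts, the LNA-122 libraries gave more unique chimeric reads than any other group of libraries. miR-192-5p, another liver miRNA, had 12 in 9 genes, with 1 canonical match and 5 with no seed match. At all other genes 28.6% of its interactions were canonical (at ubiquitin system genes 8.33%, 1.49 to 35.4, not tested).

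Genes of the ubiquitin system whose symbols fall outside the rule were listed separately, 105 in all, and 78 (74.3%) had interactions, 268 together, of which 91 (34.0%) were canonical. Of all protein-coding genes 33.2% had an interaction, and 32.9% of the interactions at genes outside the symbol rule were canonical. The 4 ubiquitin precursor genes had 7, of which 5 were in the coding sequence and 4 were canonical. E1 genes had 9, of which 5 were of UBA1, the main E1, all in the coding sequence. Among HECT ligases 13 of 14 had interactions, 73 together, among them HUWE1 with 12, TRIP12 with 11 and NEDD4L with 9. HUWE1 and TRIP12 had 7 each in the coding sequence, and NEDD4L had 8 in introns. Among other ligases and adaptors, ZNRF3 had 17, of which 5 were in the 3'UTR. DDB1, the adaptor of CUL4A, had 7, all in the coding sequence. ARIH1, BIRC6 and MDM2, the ligase of p53, had 9 each. KLHL15 had 6, all in the 3'UTR. Other deubiquitinating enzymes had 22, led by OTUD4 with 6 and YOD1 with 4, and proteasome subunits and shuttle factors had 67 at 27 of 38 genes, led by PSMD1 with 9, PSMA1 with 8, PSMD14 with 6 and PSMB1 with 5. The list was drawn up with earlier results of the table known and was not tested.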

How the data were processed

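The authors mapped mature miRNA sequences to the reads of 31 libraries with Bowtie, gave a read that fitted several miRNAs to 1 at random, mapped the remaining part uniquely to hg18, removed PCR duplicates and clustered reads of 1 miRNA with overlapping positions. The deposited count N is the number of unique reads of an interaction, pooled over libraries. The deposited energy, seed match and duplex come from a region of 75 nt that starts at the ligation, and the energy is a score from RNAhybrid. The submitters' notes also name CASAVA 1.8.2. Coordinates are printed as listed, with their numbering base unstated.

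The members and lists were chosen with earlier results of these data known. Each measure was fitted as a linear model on membership over interactions with a gene symbol. Standard errors were clustered by gene (statsmodels 0.14.6, Python 3.11.15). The model was checked on simulated data for a measure as frequent as the canonical seed share. That check does not cover rarer measures such as the shared place share, or alternatives with few interactions. miRNAs were tested if at least 5 interactions were expected at ubiquitin system genes. P-values measure the spread between genes in 1 pooled table, not between cultures. Wilson intervals (95%) cover counting error only. Named genes were the 10 with the most interactions, the 3 leading in each symbol family and those with the most reads, and in the other list up to 4 per group. Remaining interactions with 2 reads, 3'UTR matches, shared places, low energies and close starts, and DDB1 and KLHL15 of the other list, were named after their values were seen. Results of some genes named by this rule are not reported here. No place with 3 or more miRNAs was found at a ubiquitin system gene. Alternatives changed the weighting, the read minimum, the model, the members, the regions and the overlap.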

Additional observations from a re-analysis of the deposited data

How the results depend on the processing

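Besides the values as reported, 106 alternative values were computed, of which 87 kept their direction and their side of the threshold. The 87 include the number of miRNAs that passed, which stayed at 0 and has no direction. Most of the 87 were of measures that had not passed as reported. No paired analysis was possible because interactions carry no library or replicate, and for the same reason no replicate could be left out. The lower share of shared places passed the threshold under 10 of 13 alternatives (difference from -1.73 to -27.5 points). It missed it with an overlap of at least 30 nucleotides (-4.16 points), in introns alone (-1.73 points) and in a logistic model (log odds -0.783). The -27.5 points came with 2 or more reads. There only TRIM37 with miR-17-5p, of 17 interactions at ubiquitin system genes, lay at a shared place (5.88%, against 33.3%). That is too few for its p-value to be relied on. The share of canonical matches near the ligation passed the threshold only when weighted by reads (7.62 points). Directions that turned were of differences that had not passed the threshold as reported. After turning, only the 8mer share in 3'UTRs alone passed it. That pass rests on 8mers in 3 of 79 interactions at ubiquitin system genes, too few for its p-value to be relied on. With 3'UTR interactions alone, the differences that turned were the canonical share (-4.01 points), the 8mer share (-6.93, n = 79 and 3811, adjusted p = 0.00613), class 4 (-3.92) and the share near the ligation (-0.125). With interactions of 2 or more reads, of which 17 are at ubiquitin system genes, they were the 3'UTR share (0.209), the intron share (1.02), the canonical share (-6.54), the 8mer share (-6.49), no seed match (8.33) and the energy (0.215 kcal per mol). Without RNF220 the 3'UTR share (0.390) and class 4 (-0.0795) turned, weighted by reads the 8mer share (-0.223), with 8mers and 7mers alone the canonical share (-0.156), and without introns, an alternative chosen after seeing the data, the canonical share (-1.47). The causes were not tested. In each alternative in which miRNAs were tested, 0 passed. The limits to introns, to other genes of up to 30 interactions and to shared places of unlike seeds, and the grouping of miRNAs by seed, were also added after seeing the data. With 2 or more reads no miRNA reached the expected count of 5, and the share near the ligation was not tested, since all 8 canonical matches at ubiquitin system genes lay there, against 77.6% of 558 at all other genes. With 466 interactions and mostly 1 read each, the SE of a share's difference had a median of 2.00 points, which limits how small a difference could be detected.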

Other observations

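The 8mer share by transcript region is given as a description, since it was noticed in these values. At ubiquitin system genes 3 of 79 interactions in 3'UTRs (3.80%, 95% Wilson interval 1.30 to 10.6), 3 of 100 in the coding sequence (3.00%, 1.03 to 8.45) and 27 of 248 in introns (10.9%, 7.59 to 15.4) were 8mers. At all other genes these shares were 10.7% in 3'UTRs, 6.59% in the coding sequence and 6.92% in introns. The Wilson intervals do not allow for several 8mers in 1 gene. Clustered by gene, the intron difference was 3.96 points (SE 2.22), which did not pass the 0.05 threshold. Of the 27 intron 8mers, 14 lay as pairs in 7 genes, FBXL21, RNF220, TRIM37, UBE2K, UBE2R2, USP14 and USP47, and in FBXL21, TRIM37 and USP14 both 8mers of the pair overlapped and belonged to 1 miRNA family.

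At ubiquitin system genes 7.59% of 3'UTR interactions, 4.00% of coding-sequence interactions and 4.03% of intron interactions lay at a shared place, and at all other genes 21.6%, 15.3% and 5.76%. The other genes with the most interactions at shared places were ANKRD30BL with 79, HFM1 with 54 and AFP with 45.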
